A study of Mus musculus with 56 samples.

Results

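Among 50 tumor cells of a mouse with colon tumors, 22 held Ascl2 at 1 TPM or more and 28 did not; TPM are transcript levels scaled for gene length and to a fixed total per library. The comparison of those 22 Ascl2-expressing cells with the other 28 is described here across genes. The cells were chosen by the Ascl2 value itself, which is therefore given as a description. The 50 cells came from 56 sequenced libraries: 6 pairs of libraries whose profiles correlated at Pearson's r above 0.9 were averaged and counted as 1 cell each. The cells came from 3 colon tumors, pooled after digestion, of 1 male mouse that carried the ApcMin/+ allele and had received 2% dextran sulfate sodium for 5 days from 10 weeks of age, with tumors taken at 12 weeks. ApcMin is a truncating allele of Apc, the brake on Wnt signaling, and dextran sulfate sodium is a polymer that injures the colonic epithelium. All 56 libraries, in both groups of cells, shared this genotype and treatment, the sort for living cells with EpCAM and CD24 on the surface and without CD31 and CD45, and a PCR of 32 cycles that had found Lgr5 in the cDNA. With 1 mouse there is no replicate animal, so every difference below compares these cells and carries no test, and an SD is the spread over cells.

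ASCL2 is a basic helix-loop-helix (bHLH) transcription factor of the achaete-scute family. Such factors bind DNA at E-boxes, whose letters are CANNTG, together with widely expressed E proteins, and ID proteins take up the E proteins and so oppose them. In the intestine Ascl2 is known as a Wnt-responsive gene of the stem cells at the crypt base, where it maintains their identity together with TCF factors, and colorectal tumors often carry high levels of it. In the mouse placenta the gene is imprinted and lies in a domain of imprinted genes on distal chromosome 7.

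Ascl2 (ENSMUSG00000009248) lies on chromosome 7 from 142966829 to 142969264 on the minus strand of GRCm38, and its longer annotated transcript has 3 exons. No other annotated gene overlaps it. In 27 cells it was listed at 0 and in 1 cell it stood at 0.86 TPM, the value just under the limit, whereas the lowest expressing cell stood at 2.72 TPM and the next at 7.60 TPM. The 22 expressing cells had a median of 71.8 TPM, an interquartile range of 30.7 to 131 TPM and a highest value of 329 TPM. Ascl2 reached 10 TPM in 20 cells and 100 TPM in 8. The levels thus fell into a range at or near 0 and a well-detected range with few cells between them. A listed 0 can also be a transcript that was missed in that cell, which was not tested. The expressing share was 44% of cells (22 of 50; exact 95% Clopper-Pearson interval 30% to 58.7%, which covers counting error only). In the averaged pairs the call did not depend on which library was read: in 4 pairs both libraries held Ascl2 (37 and 47.2 TPM, 9.03 and 28.7 TPM, 2.41 and 3.03 TPM, and 41.9 and 82.6 TPM), and in 2 pairs both were listed at 0.

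**Figure D1:**
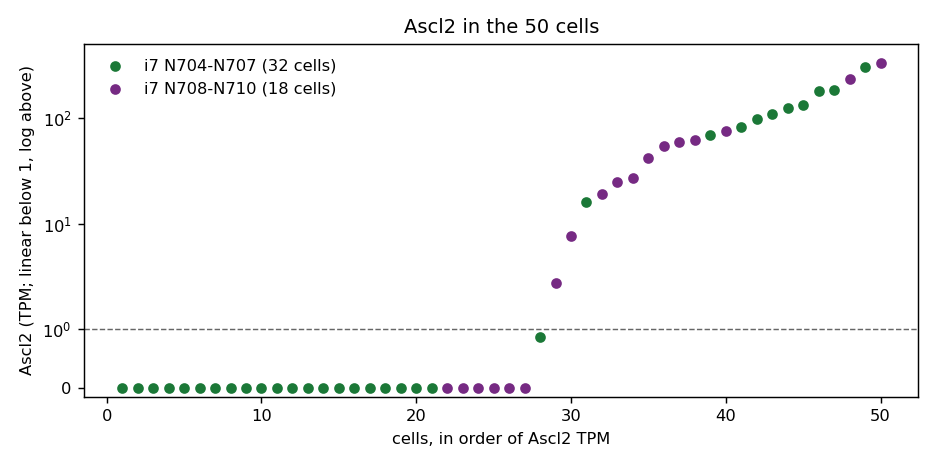
Ascl2 in TPM for each of the 50 cells in rising order, on an axis that is linear below 1 and logarithmic above; green points carry i7 indexes N704 to N707, purple points those of N708 to N710, and the dashed line marks 1 TPM. The 22 cells above the line span 2.72 to 329 TPM, and 27 of the 28 below it are listed at 0.

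The 250 bases upstream of the annotated start of Ascl2 (RefSeq, GRCm38.p6, chr7:142969265-142969514, minus strand) are shown because ASCL2 is reported to act on its own gene. Printed 5′ to 3′ and ending at the base before the start, with E-boxes (CANNTG) in capitals, the stretch is
Ascl2: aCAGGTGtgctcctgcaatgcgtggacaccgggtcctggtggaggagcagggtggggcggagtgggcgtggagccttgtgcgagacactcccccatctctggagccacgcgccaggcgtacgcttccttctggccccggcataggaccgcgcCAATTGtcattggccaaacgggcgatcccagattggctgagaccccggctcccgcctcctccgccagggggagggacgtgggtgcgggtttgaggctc
It held 2 E-boxes, CAGGTG at 249 bases and CAATTG at 98 bases before the start, and the form CAGCTG was absent. An E-box of any form was present in the equivalent stretch of 69.3% of 27025 genes, so its presence does not set Ascl2 apart.

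Ascl2-expressing cells were unevenly spread over the sequencing indexes. Of the 32 cells with i7 indexes N704 to N707, 10 expressed Ascl2 (31.3%, interval 16.1% to 50%), and of the 18 cells with N708 to N710, 12 did (66.7%, interval 41% to 86.7%). By single index the counts ran from 1 of 8 cells for N704 to 5 of 8 for N706, N708 and N710 and 4 of 6 for N709. Averaged pairs whose libraries carried different i7 indexes are counted under both. Where Ascl2 was seen, its median was 116 TPM in the first group of indexes and 48.2 TPM in the second, so the group with the larger share had the lower level. All 6 averaged pairs lay in the second group. The differences that the results turn on are therefore also given within both i7 groups, in parentheses with N704 to N707 first.

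The number of genes at 1 TPM or more per cell ran from 5138 to 7234 in the expressing cells, with a median of 5884, and from 1316 to 7010 in the others, with a median of 5930.5. The means were 6046 ± 612 and 5576 ± 1151 genes (SD over 22 and 28 cells). A single cell with 1316 genes, in which the mitochondrial-like pseudogene Gm10925 held 85.1% of all TPM, lay among the others; without it their lowest count was 3151 genes and their median 5971. The part of genes per cell in the differences was not tested, and values adjusted for it by linear regression are given where they differ. TPM keep no read depth, so the depth behind each value is unknown.

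Over the 9165 genes other than Ascl2 that reached 1 TPM in 20% of cells, most differences were small and leaned upward. The difference used throughout is the mean of log2(TPM + 1) in expressing cells minus that in the others, and a gene was counted as past 2-fold at a difference of 1 or more in size. By this measure 681 genes (7.43%) were higher and 168 (1.83%) lower in Ascl2-expressing cells, 62.6% of genes were higher by any amount, and the median gene differed by 0.16. Past 2-fold in both i7 groups at once were 253 genes (2.76%) on the higher and 48 (0.524%) on the lower side. The upward lean went with genes per cell: after adjustment for it 323 genes were higher, 385 lower and the median was -0.02, and without the cell with the fewest genes the counts were 545 and 240. In N704 to N707 alone 883 were higher and 442 lower past 2-fold, and in N708 to N710 alone 1801 and 621, with medians of 0.12 and 0.27. Whole-profile likeness hardly followed Ascl2: the median Pearson r was 0.603 between pairs of expressing cells, 0.572 between pairs of the others and 0.589 between a cell of each kind. These pairs of cells share cells, and in part indexes.

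**Figure D2:**
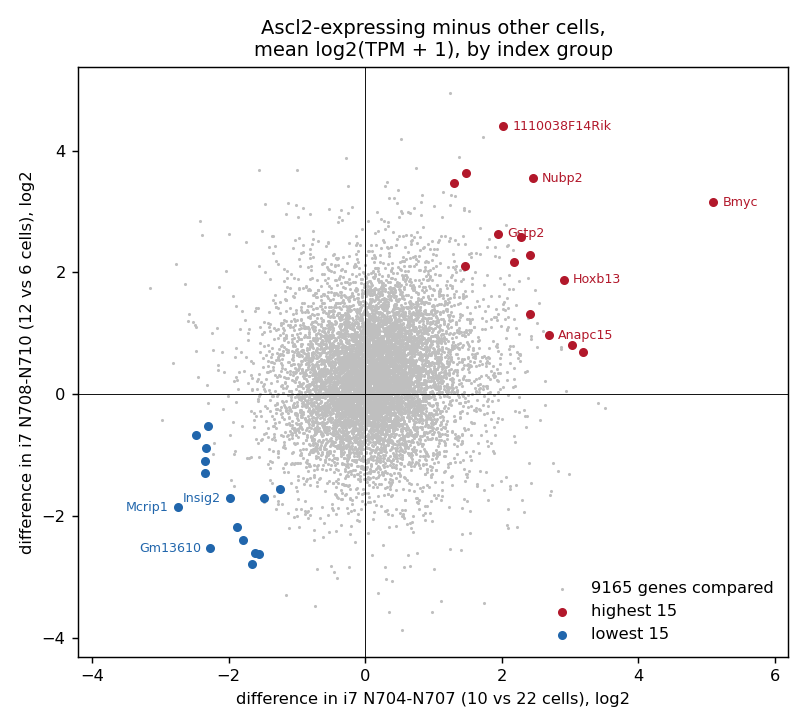
Difference of mean log2(TPM + 1), Ascl2-expressing minus other cells, for the i7 indexes N704 to N707 (x axis, 10 against 22 cells) and of N708 to N710 (y axis, 12 against 6 cells) for the 9165 genes compared (grey). The 15 highest genes (red) and the 15 lowest (blue) were picked for having the same sign on both axes; Bmyc stands farthest to the right, at 5.10 and 3.15.

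The gene with the highest difference was Bmyc, a short relative of Myc that lacks the DNA-binding region of that family. It was seen, at 1 TPM or more, in 17 of 22 expressing cells and in 7 of 28 others, with values of 0, 91.3 and 1000 TPM (lowest, median and highest) in the first and 0, 0 and 378 TPM in the second. The groups overlapped, since 5 expressing cells were listed at 0. Mean log2(TPM + 1) was 5.37 ± 3.43 (SD, n = 22 cells) and 1.17 ± 2.57 (n = 28), a difference of 4.20, with 5.10 and 3.15 in the i7 groups and 4.44 after adjustment for i7 group and genes per cell. Bmyc (chromosome 2, 25706739 to 25707721, plus strand) overlaps the antisense gene A230005M16Rik, and without stated use of strand the reads of both cannot be told apart. Myc itself differed by 0.03 and was seen in 15 of 22 and 19 of 28 cells, and Mycl, named after its values were seen, differed by 1.32.

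The other high genes held enzymes and a positional factor. Nubp2, which serves in iron-sulfur cluster assembly, was seen in 20 of 22 expressing cells and 13 of 28 others, with medians of 74.5 and 0.50 TPM and a difference of 3.35 (2.45 and 3.54 in the i7 groups). Hoxb13, the homeobox gene of the most distal gut, reached 1 TPM in all 22 expressing cells, from 1.59 to 772 TPM with a median of 144 TPM, and in 19 of 28 others, from 0 to 319 TPM with a median of 53.4 TPM. Its difference was 2.44 (2.91 and 1.88). The expressing cells therefore lacked the Hoxb13-negative cells found among the others, although the ranges of the 2 groups overlapped over most of their width. Gstp2, a glutathione S-transferase, had medians of 183 and 24.3 TPM and a difference of 2.65 (1.95 and 2.64); its paralog Gstp1, with which it can share reads, differed by 0.40. Gstt2, of the theta class of the same enzymes, differed by 2.34 (2.28 and 2.58). Pop7, a subunit of the RNA-processing enzymes RNase P and MRP, had medians of 314 and 29.7 TPM and a difference of 2.62 (2.19 and 2.17), and its annotation overlaps Epo.

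Cell cycle genes were also among the 15 highest. Tyms, which makes the DNA precursor thymidylate, was seen in 17 of 22 and 10 of 28 cells and differed by 2.39 (2.41 and 1.32). Anapc15, a subunit of the ubiquitin ligase that drives exit from mitosis, was seen in 18 of 22 and 9 of 28 cells and differed by 2.57 (2.69 and 0.97). Sprr2a3, a small proline-rich protein gene of stressed epithelium, was seen in 19 of 22 and 19 of 28 cells, with medians of 334 and 48.9 TPM and 3 and 9 cells listed at 0, and differed by 2.39 (1.46 and 2.10). It fell to 1.27 after adjustment for i7 group and genes per cell. The rest of the 15 were 1110038F14Rik (2.80), Pgrmc1 (2.38), Tspan1 (2.34), Coq4 (2.34) and the pair Gm14440 (2.34) and Gm14435 (2.32), which held nearly the same values and are uncertain because such copies can share reads. The gene just outside the 15 differed by 2.29. All 15 were past 2-fold in N704 to N707 and 12 of 15 in N708 to N710. A median of 13 of the 15 (6 to 15) was seen per expressing cell and 6.5 (0 to 11) per other cell; the 15 were picked for this contrast, so this only describes how the pattern was shared out among cells.

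On the lower side the differences were smaller. Mcrip1, which encodes a partner of the corepressor CtBP, was seen in 13 of 22 expressing cells and 26 of 28 others, with medians of 6.22 and 67.8 TPM, and differed by -2.53 (-2.74 and -1.86). Insig2, an endoplasmic reticulum protein that holds back the cholesterol regulator SREBP, was seen in 7 of 22 and 21 of 28 cells, at most at 16.5 TPM in expressing cells and 55.4 TPM in the others, and differed by -1.98 (-1.97 and -1.71). The Insig2 ranges overlapped, with most expressing cells listed at or near 0. Gdf11, a ligand of the TGF-beta family, was seen in 6 of 22 and 15 of 28 cells, with highest values of 91.2 and 821 TPM, and differed by -2.13 (-2.35 and -1.29).

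The rest of the 15 lowest genes were Gm13610 (-2.25; it lies within Prrc2b on the other strand), the beta-tubulin gene Tubb4a (-2.19), the metallothionein gene Mt3 (-2.11), the small GTPase genes Rab20 (-1.98) and Rab34 (-1.84), Alb (-1.81), Chchd7 (-1.80), Amotl2 (-1.77), Pnliprp1 (-1.76), Pycr1 (-1.74), Npb (-1.72) and Bloc1s4 (-1.70). Alb, the serum albumin gene of the liver, and Pnliprp1, a pancreatic lipase relative, are not typical colon genes; Alb was seen in 6 of 22 and 13 of 28 cells and at most at 34.2 and 270 TPM. Npb, a neuropeptide gene, was seen in 1 expressing cell and 9 others. The gene just outside the 15 differed by -1.67. All 15 were past 2-fold in N704 to N707 and 12 of 15 in N708 to N710.

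**Figure D3:**
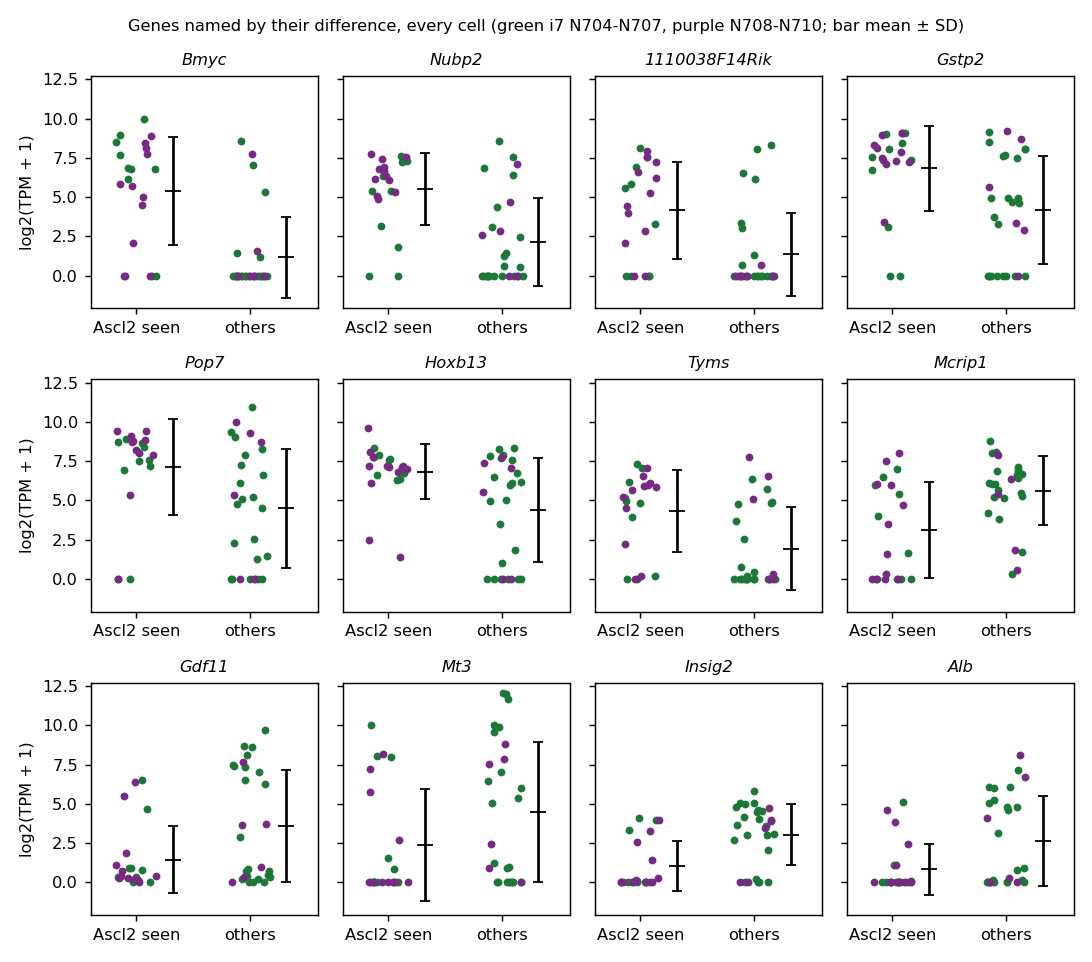
log2(TPM + 1) in every cell for 12 of the genes named by their difference, Ascl2-expressing cells on the left of each panel and the other 28 on the right; points are cells, green for i7 indexes N704 to N707 and purple for N708 to N710, and bars give the mean ± SD over cells. The groups overlap for every gene shown, and in most panels some cells of both groups sit at 0. Hoxb13 is above 0 in all expressing cells, and Mcrip1 in all the others.

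Upstream stretches of 2 of the lower genes are shown because they held CAGCTG, an E-box form bound by achaete-scute factors, in a 250-base stretch (RefSeq, GRCm38.p6, minus strand; chr10:128891719-128891968 for Gdf11 and chr1:121332590-121332839 for Insig2). Capitals mark E-boxes and each stretch ends at the base before the start.
Gdf11: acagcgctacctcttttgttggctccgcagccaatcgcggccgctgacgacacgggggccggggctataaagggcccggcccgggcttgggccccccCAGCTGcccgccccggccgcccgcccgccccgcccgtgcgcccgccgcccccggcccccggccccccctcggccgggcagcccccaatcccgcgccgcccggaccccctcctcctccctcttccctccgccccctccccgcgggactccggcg
Insig2: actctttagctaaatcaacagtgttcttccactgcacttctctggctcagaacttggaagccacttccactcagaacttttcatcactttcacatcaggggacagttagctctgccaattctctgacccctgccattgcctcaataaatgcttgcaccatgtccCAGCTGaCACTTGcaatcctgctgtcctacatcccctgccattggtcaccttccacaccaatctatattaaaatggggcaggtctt
CAGCTG lay 153 bases before the start of Gdf11 and 86 bases before that of Insig2, where a second E-box, CACTTG, followed at 79 bases. CAGCTG reads the same on both strands, and it was searched in the 250 bases upstream of all annotated starts. It was found for 14.7% of 27025 genes, for 13.4% of the 7241 compared genes that matched by symbol, for 14.9% of the 552 matched genes higher past 2-fold and for 17.1% of the 129 matched genes lower past 2-fold. Of the 15 highest genes 11 matched and 0 held it, and of the 15 lowest 12 matched and 3 held it, Gdf11, Insig2 and Pycr1. The shares of the higher and the lower genes thus lay within 4 percentage points of the share of all genes compared. A match of letters is not a binding site, and other distances were not searched.

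The partners, opponents and reported targets of ASCL2 did not move with it as a group. Of 17 genes listed, 15 were compared, of which 0 were higher and 1 lower past 2-fold (7.43% and 1.83% of all genes), and their median difference was 0.00 (-0.28 and 0.22 in the i7 groups). The E protein genes Tcf3, Tcf4 and Tcf12 differed by 0.19, -0.38 and 0.19 and were seen in most cells of both groups, so possible partners of ASCL2 were present with and without it. Among the opponents Id1 differed by 0.00, Id2 by 0.66 (0.66 and 1.14) and Id3 by -0.26 (-0.89 and 1.11), and every cell held Id3, at median levels of 1322 and 1070.4 TPM. The lower gene was Sox9, a Wnt-responsive factor of stem and Paneth cells, which was seen in 18 of 22 and 25 of 28 cells with medians of 11 and 42.5 TPM and differed by -1.23; it differed by -1.87 in N704 to N707 but by 0.22 in N708 to N710.

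Crypt base stem cell genes leaned slightly upward. Of 25 listed, 21 were compared, 4 were higher and 1 lower past 2-fold, and the median difference was 0.27 against 0.16 over all genes. Of all genes compared, 7.43% were higher and 1.83% lower past 2-fold, and the counts of this and every later list are to be read beside these shares. Lgr5, the receptor gene whose PCR signal had selected all the cells, was seen in 19 of 22 expressing cells and 19 of 28 others, with medians of 2.42 and 1.71 TPM and highest values of 15.1 and 16.2 TPM. Its difference of 0.39 (0.51 and 0.10 in the i7 groups) was small beside the SD of 1.10 and 1.17 within the groups. The 4 higher genes were Kcne3 (1.64; 1.08 and 1.65), a potassium channel subunit, Igfbp4 (1.38; 1.24 and 1.79), which binds insulin-like growth factors, Phgdh (1.35; 0.95 and 1.15), the first enzyme of serine synthesis, and Cdca7 (1.24; 0.28 and 1.54), a gene of the dividing crypt. Igfbp4 was seen in all 22 expressing cells, from 45.1 to 685 TPM with a median of 304 TPM, and in 26 of 28 others, from 0.05 to 508.1 TPM with a median of 172 TPM. After adjustment for i7 group and genes per cell the last 3 differed by 0.96, 0.67 and 0.43. Smoc2, another marker of these stem cells, was seen in 20 of 22 and 23 of 28 cells and differed by 0.66, and Olfm4 and Slc14a1 reached 1 TPM in 0 cells.

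Wnt target and feedback genes did not separate the groups either. Of 18 compared, 0 were higher and 2 lower past 2-fold (7.43% and 1.83% of all genes), with a median of -0.09 (-0.01 and 0.04). Axin2, the classic feedback target, was seen in 16 of 22 and 23 of 28 cells with medians of 4.06 and 6.34 TPM and differed by -0.47 (-0.28 and -0.49). The secreted Wnt inhibitor Notum had medians of 42.3 and 67.2 TPM and differed by -0.34 (0.46 and -0.48), and Nkd1 differed by -0.32 (-0.15 and 0.21), so neither kept its sign in both i7 groups. The lower 2 were Sp5, a transcription factor gene, which differed by -1.22 but by 0.28 within N704 to N707, and Apcdd1, a Wnt antagonist seen in 6 of 22 and 14 of 28 cells, which differed by -1.21 (-1.17 and -1.14). Among 9 ligands and receptors compared, the ligand genes Wnt10a (-1.18; 4 of 22 and 10 of 28 cells) and Wnt6 (-1.14; 6 of 22 and 12 of 28 cells) were lower, but in N708 to N710 Wnt10a differed by 0.49 and Wnt6 by -0.02. As a list, Wnt targets thus did not stand higher in the cells with Ascl2, itself a Wnt-responsive gene: 10 of the 18 leaned lower.

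Neighbors of Ascl2 in its imprinted domain mostly differed little from one group to the other. Of 10 genes compared, Tssc4 was higher past 2-fold (1.59; 1.24 and 3.11), seen in 20 of 22 and 21 of 28 cells, and 0 were lower; the list's median was 0.14. The annotation of Tssc4 overlaps Trpm5. The growth inhibitor Cdkn1c, expressed from the maternal copy as Ascl2 is in the placenta, was seen in 7 of 22 and 10 of 28 cells and differed by 0.31 (0.62 and 1.11), and in N708 to N710 it was seen in 3 of 12 expressing cells and 0 of 6 others. Kcnq1 differed by -0.13 and Cd81 by 0.08.

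Genes of DNA replication and mitosis stood higher in Ascl2-expressing cells, but less so within the i7 groups. Of 21 S phase genes compared, 8 were higher and 0 lower past 2-fold with a median of 0.80. Of 20 G2/M genes 11 were higher and 0 lower with a median of 1.04. Of all genes 7.43% were higher and 1.83% lower. Dut, which clears dUTP, was seen in 14 of 22 and 7 of 28 cells and differed by 1.66 (1.25 and 0.54). Mcm2, of the replicative helicase, was seen in 16 of 22 and 13 of 28 cells and differed by 1.46 (1.19 and 0.34). Among mitotic genes the kinase gene Aurka was seen in 11 of 22 and 4 of 28 cells and differed by 1.86 (1.88 and 1.28), and Cdc20, an activator of the anaphase-promoting complex, in 10 of 22 and 5 of 28 cells with 1.76 (1.33 and 2.10). Plk1 differed by 1.58 (1.61 and 0.60) and Cks2 by 1.71, with -0.17 in N708 to N710. Mki67, the usual marker of cycling cells, was seen in 9 of 22 and 5 of 28 cells and differed by 1.08 (0.72 and 0.12). Top2a was seen in 9 of 22 and 9 of 28 cells and differed by 0.73 (1.47 and -1.42). The remaining G2/M genes past 2-fold were split in N708 to N710. Cdk1 (-0.31), Ccna2 (-0.21), Birc5 (-0.61) and Ube2c (-0.18) were lower there, and Spc24 (1.48) and Spc25 (0.48) higher.

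Cells with at least 15 of the 30 G2/M genes were themselves unevenly spread, with 3 of 32 in N704 to N707 and 8 of 18 in N708 to N710, and their part in these differences was not tested. The S phase median was 0.71 in N704 to N707 and -0.10 in N708 to N710, the G2/M median 0.81 and 0.24, and after adjustment for i7 group and genes per cell the medians were 0.09 and 0.19. Counted by cell, at least 11 of the 22 S phase genes were seen in 12 of 22 expressing cells (54.5%, interval 32.2% to 75.6%) and 5 of 28 others (17.9%, interval 6.06% to 36.9%). Within the indexes the counts were 3 of 10 and 2 of 22 for N704 to N707, and 9 of 12 and 3 of 6 for N708 to N710. At least 15 of 30 G2/M genes were seen in 7 of 22 and 4 of 28 cells, with 2 of 10 and 1 of 22 in the first group of indexes and 5 of 12 and 3 of 6 in the second. Read from the other side, 12 of the 17 cells rich in S phase genes held Ascl2, against 10 of the other 33. Leaving out the 11 cells with at least 15 G2/M genes, the 15 expressing and 24 other cells gave an S phase median of 1.18 and a G2/M median of 0.37. These 2 medians were not adjusted for i7 group. Cells with at least 11 S phase and under 15 G2/M genes were 1 of 10 expressing and 1 of 22 others in N704 to N707. In N708 to N710 they were 4 of 12 and 0 of 6. Among the Ascl2-expressing cells the level did not follow the cycle: it had a median of 60.4 TPM in the 12 rich in S phase genes and 103 TPM in the other 10, with ranges of 15.97 to 329 TPM and 2.72 to 182 TPM, which overlapped.

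**Figure D4:**
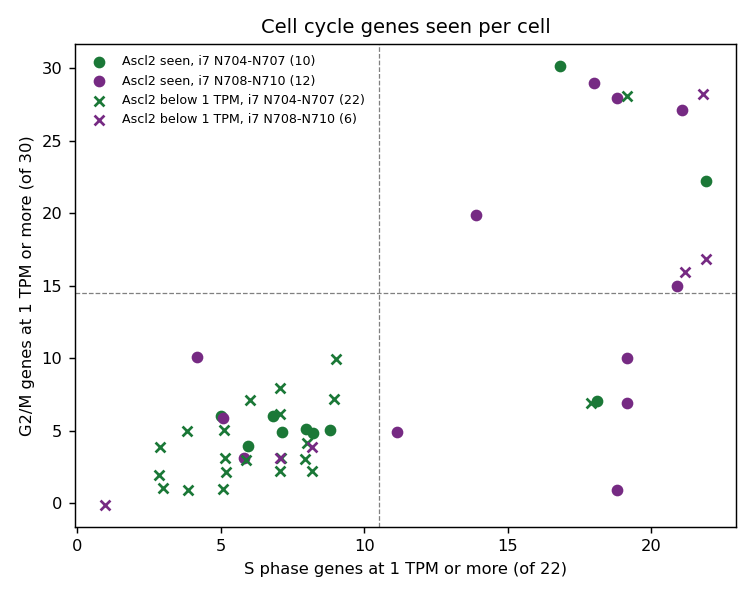
Number of the 22 S phase genes (x axis) and of the 30 G2/M genes (y axis) seen at 1 TPM or more in each cell, shifted slightly so that points do not hide each other; discs are Ascl2-expressing cells and crosses the others, green for i7 indexes N704 to N707 and purple for N708 to N710, and dashed lines mark 11 and 15 genes. Right of the vertical line lie 12 discs and 5 crosses, of which 9 and 3 are purple.

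Genes of slow-cycling or reserve cells did not show the opposite pattern. Of 13 compared, 0 were past 2-fold in either direction and the median was -0.03 (-0.22 and 0.62). Prox1, the homeobox factor gene that the series is about, was seen in 18 of 22 expressing cells (81.8%) and 23 of 28 others (82.1%), with medians of 8.34 and 18.2 TPM, and differed by -0.67 (-0.77 and 0.17). Hopx was seen in 10 of 22 and 9 of 28 cells, and the cell cycle inhibitor gene Cdkn1b in 15 of 22 and 15 of 28 with a difference of 0.78. Ascl2 and Prox1 were thus seen together in 18 cells, 4 cells held Ascl2 alone, 23 Prox1 alone and 5 neither.

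Genes of ribosome building leaned higher in both i7 groups. All 14 compared were higher by some amount, where 62.6% of all genes were, and 3 were past 2-fold: Rrs1 (1.76; 1.49 and 3.63) and Gnl3 (1.47; 1.6 and 0.61), both of the nucleolus, and Nop2 (1.66; 0.98 and 2.51), which modifies ribosomal RNA. The list's median was 0.74 (0.61 and 1.08) and 0.40 after adjustment for i7 group and genes per cell, when the median of all genes was 0.01. The 14 genes of oxidative phosphorylation had a median of 0.53 with 0 past 2-fold, and 0.19 after the same adjustment. The 10 housekeeping genes had a median of 0.32, and 0.10 after it.

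The Notch, TGF-beta and BMP, and Eph lists had medians near 0 over all cells, with at most a few members past 2-fold. Of 9 Notch genes compared, 3 were higher and 0 lower past 2-fold (7.43% and 1.83% of all genes), with a median of 0.05 over all cells. The Notch median was higher within each i7 group, at 0.55 and 0.21. Nrarp, a feedback target of Notch, was seen in 13 of 22 and 4 of 28 cells, with highest values of 197 and 61.1 TPM, and differed by 1.61 (1.43 and 1.59). Hey1, another target, was seen in 9 of 22 and 6 of 28 cells and differed by 1.14 (1.13 and 0.99). Every cell held Hes6, at median levels of 1557 and 1159 TPM, and it differed by 1.12 (1.02 and 1.34), but by 0.70 after adjustment for i7 group and genes per cell, when Nrarp kept 1.23 and Hey1 0.99. Hes1 differed by 0.60, and Rbpj, the DNA-binding factor of the pathway, by -0.46. The targets Nrarp and Hey1 thus leaned up in both i7 groups while the core factor did not.

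Among 14 genes of the TGF-beta and BMP pathways 1 was higher and 2 lower past 2-fold (7.43% and 1.83% of all genes), with a median of 0.00 (-0.29 and 0.53). Bambi, a decoy receptor that is also a Wnt target, was seen in 18 of 22 and 11 of 28 cells (median 0.35 TPM in the others) and differed by 1.29 (2.06 and 0.92). The ligand gene Bmp7 was seen in 4 of 22 and 18 of 28 cells with highest values of 9.21 and 19.9 TPM and differed by -1.13 (-1.31 and -0.48), beside Gdf11. The receptors Bmpr1a, Bmpr2, Tgfbr1 and Tgfbr2 differed by -0.17, 0.29, 0.07 and 0.34, so over all cells the larger differences lay among ligands and the decoy. Of 10 Eph receptor and ephrin genes, which sort cells along the crypt, 0 were past 2-fold; Ephb3 differed by -0.37 (-1.42 and 0.36) and Efnb2 by -0.90 (-1.14 and 0.13). Of 15 immediate early genes 0 were past 2-fold, with a median of 0.33.

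Genes of differentiated cells gave a mixed picture. All 6 colonocyte genes compared leaned up, where 62.6% of all genes did, with a median of 0.64 (0.51 and 0.75). Only 4 of the 6 leaned up in both i7 groups, since Car2 differed by -0.98 in N708 to N710 and Ceacam1 by -0.53 in N704 to N707. The guanylin-family hormone gene Guca2b was the 1 gene past 2-fold, at 1.52 (0.84 and 1.6), seen in 9 of 22 and 3 of 28 cells. The 8 others that reached 1 TPM in 0 cells included Car4, Aqp8 and Krt20. Of 4 goblet cell genes compared, Agr2, a protein-folding enzyme of secretory cells, was higher at 1.90 (1.96 and 2.25), seen in 15 of 22 and 10 of 28 cells with medians of 39.2 and 0.25 TPM, and Klf4 was lower at -1.18 (-1.28 and -1.53), seen in 17 of 22 and 27 of 28. The goblet mucin gene Muc2 was seen in 0 of 22 and 1 of 28 cells and Atoh1, the factor that starts the secretory fate, also in 0 and 1. Agr2 was thus not accompanied by the defining goblet genes. Among genes shared by gut epithelium, Lgals4 (1.79; 1.03 and 2.10; medians 356 and 40.1 TPM) and Hnf4a (1.41; 0.92 and 1.62; medians 28 and 9.16 TPM) were higher past 2-fold and 0 of 15 were lower. Epcam, on which cells had been sorted, was present in every cell, at median levels of 342 and 324 TPM.

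Paneth and deep crypt secretory genes had a median of -0.32, with -0.71 in N704 to N707 and 0.05 in N708 to N710, and 1 of 8 was past 2-fold. That gene, the defensin gene Defa24, was seen in 7 of 22 and 15 of 28 cells and differed by -1.41 (-1.45 and -0.43), but 1 cell among the others held most of its transcripts, and without that cell the difference was -0.86. Defensin genes are near-identical copies, so single members are uncertain. Of 11 fetal-like and regenerative genes Ly6a, which marks regenerating colon, was lower at -1.01 (-0.61 and -2.12), seen in 4 of 22 and 8 of 28 cells, and 0 were higher past 2-fold.

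Markers of other cell types did not follow Ascl2 as lists. Of 13 immune genes, 7 reached 1 TPM in 0 cells, among them Ptprc and Cd3e; of the 3 compared Cd14, a lipopolysaccharide co-receptor that epithelial cells can also express, was higher at 2.14 (1.24 and 4.94), seen in 20 of 22 and 17 of 28 cells with medians of 121 and 14.9 TPM. Csf1r, a macrophage receptor gene, leaned the other way at -0.63 with medians of 0.11 and 1.18 TPM. The mean level of the 3 ran from 0.22 to 5.51 on the log2 scale in expressing cells and from 0 to 4.58 in the others. Pecam1, Kdr and Tek of endothelium and Col1a2, Col3a1, Dcn and Pdgfrb of fibroblasts reached 1 TPM in 0 cells; Acta2 was higher at 1.03 but differed by -0.56 in N704 to N707. Of 3 tuft cell and 2 enteroendocrine genes compared 0 were past 2-fold, and Chga and Pou2f3 reached 1 TPM in 0 cells. Of 8 MHC class I and interferon genes 0 were past 2-fold, with a median of 0.04.

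**Figure D5:**
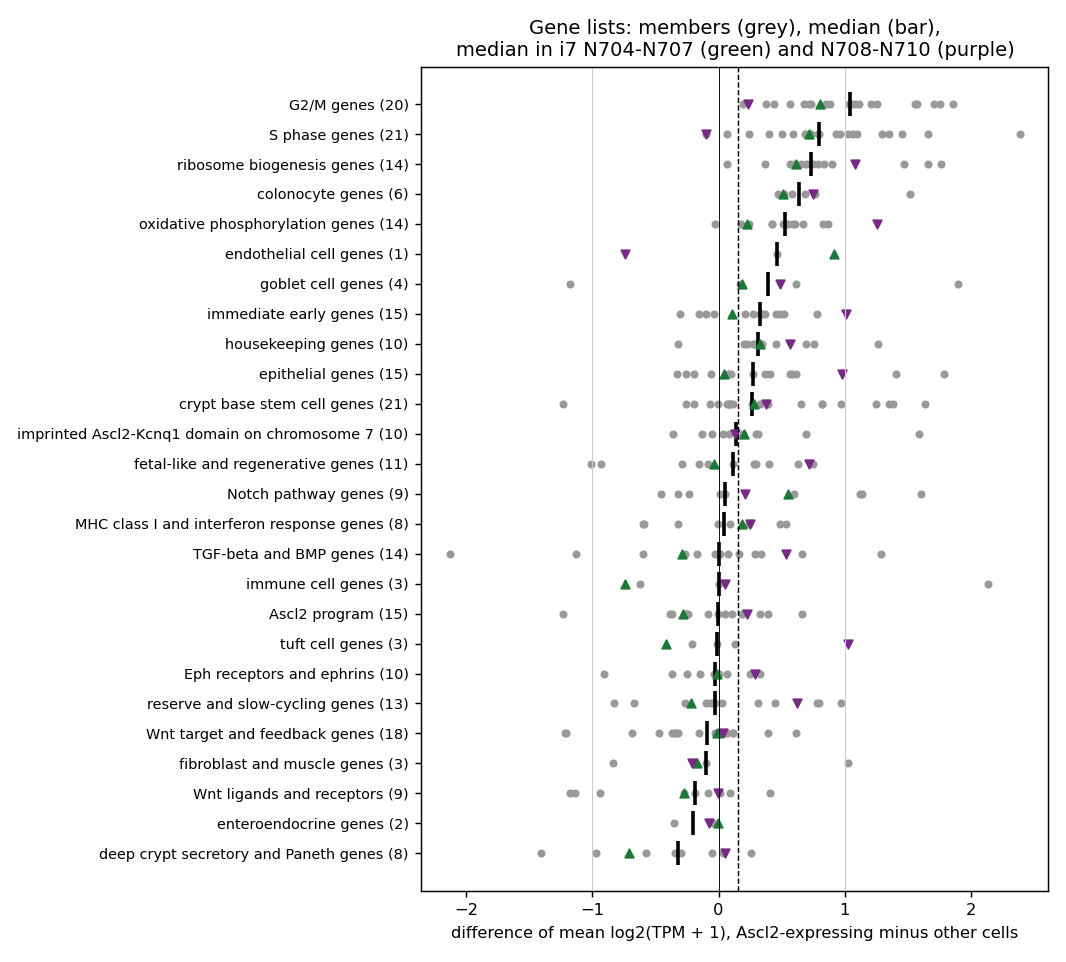
Difference of mean log2(TPM + 1), Ascl2-expressing minus other cells, for the compared members of each list (grey; number in parentheses), with the list's median as a bar and its medians in i7 indexes N704 to N707 (green) and N708 to N710 (purple); the dashed line is the median of all 9165 genes, 0.16. The G2/M and S phase medians, 1.04 and 0.80, are the highest over all cells and drop to 0.24 and -0.10 in N708 to N710.

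Genes whose level went with that of Ascl2 over all 50 cells were mostly widely expressed ones. Spearman's rank correlation, given as a description over cells that share a mouse and in part an index, was highest for Mapkap1 (0.54), a subunit of the kinase complex mTORC2, Phb2 (0.53), a mitochondrial prohibitin, Lamp3 (0.52) and Nucks1 (0.52). The next 5, from Nme2 to Mrpl2, had 0.50, Bmyc among them. Genes were ranked only if the correlation had the same sign in both i7 groups. Because 27 cells were listed at 0 for Ascl2, the ranking largely repeats the split into 2 groups. Within the 22 expressing cells the correlations of the 10 highest genes ran from -0.04 for Bmyc and 0.00 for Nme2 to 0.46 for Mrpl2 and 0.47 for Nucks1. Phb2 stood above the median of the other cells in all 22 expressing cells, from 214 to 608 TPM with a median of 368 TPM against 0 to 524 TPM with a median of 196 TPM, and differed by 1.30. Nme2, a nucleoside diphosphate kinase gene, likewise stood above that median in 22 of 22 cells; its medians were 512 and 281 TPM and it differed by 1.12. Both fell under a difference of 1 after adjustment for i7 group and genes per cell, to 0.97 and 0.87. Ddc, which makes dopamine and serotonin from their precursors, was seen in 14 of 22 and 6 of 28 cells and differed by 2.00 (2.04 and 1.81), and by 1.82 after that adjustment. Mrpl2 differed by 2.19, yet by -0.22 in N708 to N710. The lowest rank correlations were those of Mcrip1 (-0.46), Abca1 (-0.45), Acap3 (-0.45), Alb and Cdc14b (-0.43). Abca1, which exports cholesterol, differed by -0.91 (-1.02 and -0.35).

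Within the 22 expressing cells the level of Ascl2 followed none of the lists closely. The rank correlation was 0.07 with genes per cell, -0.02 with the mean level of the stem cell list, -0.03 with the Wnt targets, 0.02 with S phase, -0.09 with G2/M and 0.33 with the TGF-beta and BMP genes. Expressing cells in which Lgr5 was also seen had a median Ascl2 of 69.3 TPM (19 cells) and those without it 74.3 TPM (3 cells). Those with Gkn3, a stem cell gene, had 62.3 TPM and those without it 108 TPM, with 11 cells each and ranges of 2.72 to 302 TPM and 18.8 to 329 TPM. The 7 cells that also held Cdkn1c had a median of 123 TPM and the other 15 of 62.3 TPM, again with overlapping ranges (7.60 to 329 TPM and 2.72 to 232 TPM).

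Shares of cells with Ascl2 differed in the same loose way over other genes. Ascl2 was seen in 19 of the 38 cells with Lgr5 and 3 of the 12 without it, in 15 of the 25 cells with Agr2 and 7 of the 25 without it, and in 6 of the 21 cells with Gdf11 and 16 of the 29 without it. For Prox1 the counts were 18 of 41 and 4 of 9, and for Cdkn1c 7 of 17 and 15 of 33. In the i7 groups Agr2 was seen in 7 of 10 expressing cells and 8 of 22 others for N704 to N707 and in 8 of 12 and 2 of 6 for N708 to N710, and Gdf11 in 2 of 10 and 11 of 22, and 4 of 12 and 4 of 6. Lgr5 was seen in 9 of 10 and 14 of 22 cells for N704 to N707. For N708 to N710 the Lgr5 shares were equal, at 10 of 12 and 5 of 6 cells (83.3% each). The direction for Agr2 and Gdf11 was the same in both i7 groups, whereas the shares of cells with Prox1 were close and changed order, with 8 of 10 and 19 of 22 in the first and 10 of 12 and 4 of 6 in the second.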

How the data were processed

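Single tumor cells were profiled by Bead-seq, a single-cell RNA-seq method that makes the cDNA on beads, with Nextera XT libraries, per the labels. The file deposited by the authors holds TPM, 24410 genes by 56 libraries. The submitters' processing notes name the build GRCm38.p4 and the tools Bowtie2 2.2.9, RSEM 1.2.31 and bcl2fastq 1.8.4, with no role given. Their settings, the annotation release and whether counting used strand were not given in the sources used here. Symbols and coordinates came from GENCODE M21 (GRCm38), and upstream stretches from RefSeq (GRCm38.p6).

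Libraries were matched by index pair, and 6 pairs with Pearson's r above 0.9 of log2(TPM + 1) were averaged as TPM. Genes that reached 1 TPM in 20% of cells were compared by the difference of mean log2(TPM + 1), a scale that understates the change of low genes, with no test. Intervals are exact Clopper-Pearson intervals at 95%. Before use, the computing of the difference was checked on the deposited values shuffled over cells within each gene, with some genes raised in randomly drawn cells. That check covers the arithmetic only. Genes named were the 15 highest and 15 lowest with a symbol and the same sign in both i7 groups. By the same rule the 10 highest and 10 lowest by Spearman's rank correlation with Ascl2 were named. Also named were 11 genes for joint counts, and in each of 26 lists up to 4 members by size of difference and up to 4 by number of cells. Other list members, Gstp1 and Hox and Myc genes were named after their values were seen. The members and lists were chosen with earlier results of these data known. Alternatives covered the Ascl2 threshold, pseudocount, gene filter, pairing, removal of ribosomal protein genes, single cells, indexes, dividing cells and genes per cell; those on the i7 group (adjusted or left out by index) and on leaving out the averaged pairs were chosen after seeing the data. Computations used SciPy 1.17.1, pandas 2.3.3 and numpy 2.4.6 under Python 3.11.15, with plots by matplotlib 3.10.9.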

Additional observations from a re-analysis of the deposited data

How the results depend on the processing

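TPM give no depth, cells of 1 mouse are no replicates, and Ascl2 state and i7 index overlap in part. The 15 highest genes stayed positive and the 15 lowest negative under all 35 alternatives. They were picked as extremes with the same sign in both i7 groups, so their sign within each i7 group alone was set by the choice. The other alternatives reuse most of the same cells, so the kept signs only describe the choice. Against 681 genes higher and 168 lower past 2-fold, a pseudocount of 0.1 gave 1877 and 558, and one of 10 gave 58 and 14, with 8 of the 15 lowest genes still past 2-fold. Adjustment for genes per cell gave 323 and 385, and for i7 group and genes per cell 365 and 355. N704 to N707 alone gave 442 lower, N708 to N710 alone 1801 higher and 621 lower, cells with under 15 G2/M genes 320 lower, TPM without ribosomal protein genes and Gm10925 253 lower, and a filter at 50% of cells 93 lower. Leaving out 1 i5 index at a time gave 563 to 1085 higher and 157 to 365 lower; 1085 came without N508, 365 without N503 and 334 without N517. Leaving out 1 i7 index at a time gave 584 to 949 higher and 180 to 278 lower; 260 came without N704 and 278 without N708. Under the 50% filter, which leaves fewer members, the immune median was 2.14 and the Notch median 0.86. The other 895 list values moved by less than the SD of the list's mean level over cells, which is a wide limit. S phase levels had SDs of 1.62 and 1.69, while the list's median was 0.80 over all cells and -0.10 in N708 to N710. The G2/M medians were 1.04 and 0.24. Staying within the limit thus does not mean that a median kept its size or sign. For 144 named genes under 35 alternatives, 5028 values moved by less than the gene's SD over cells and 6 moved by more. Another 6, of differences past 2-fold, reversed. These were Sp5 (0.28) and Acta2 (-0.56) in N704 to N707 alone, and Mrpl2 (-0.22), Sox9 (0.22), Wnt10a (0.49) and Cks2 (-0.17) in N708 to N710 alone. Differences under 2-fold changed sign 125 times, in 38 genes, and were not counted as reversed. The cause of these changes was not tested. The named genes include the 15 highest and 15 lowest, picked for an equal sign in both i7 groups, so their few reversals do not describe all genes. Of all 849 genes past 2-fold, 763 had the same sign in both i7 groups. These were 627 of the 681 higher and 136 of the 168 lower genes. No paired analysis was possible because the labels name 1 group.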

Other observations

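Some genes outside the lists, chosen after their values were seen, concern position along the gut. Beside Hoxb13, which differed by 2.44, Hoxb9 differed by 1.27, Hoxa9 by 0.77 and Hoxa10 by 0.53, whereas Hoxa13, which belongs to the same paralog group as Hoxb13, differed by -1.33 and was seen in 13 of 22 expressing cells and 22 of 28 others. Among the relatives of Bmyc, Mycl differed by 1.32 and Mycn by 0.28.

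Within the 22 expressing cells the level of Ascl2 had its highest rank correlations, among 2716 genes ranked and chosen after their values were seen, with Calml4 (0.77), Chchd10 (0.74), Tmem127 (0.73) and Rbm28 (0.73). Within the i7 groups these were, in order, 0.52 and 0.79, 0.20 and 0.78, 0.32 and 0.74, and 0.58 and 0.90. The lowest correlations were with Pick1 (-0.70), Mllt10 (-0.70) and Myh14 (-0.64). Within the i7 groups those were -0.53 and -0.54, -0.64 and -0.69, and -0.28 and -0.54. Calml4, a calmodulin-like gene of the brush border, was seen in 16 of 22 expressing cells and 17 of 28 others and so differed between the groups by only 0.20.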
